A study of Homo sapiens with 24 samples.

Results

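The baseline transcriptomes of OCI-Ly3 and DB were compared in cells that had not been silenced for FOXP1. Both are established lines from diffuse large B-cell lymphoma (DLBCL): OCI-Ly3 represents its activated B-cell-like subtype (ABC-DLBCL) and DB its germinal centre B-cell-like subtype (GCB-DLBCL). Both had received a non-silencing Stealth Low GC duplex (siCtrl) by Nucleofection and were harvested after 48 hours, so every value below is from electroporated cells carrying siRNA. RNA of siCtrl cells was labelled with Cy5 and hybridised to 2-colour Agilent arrays against RNA of the same line silenced with siFOXP1_308 or siFOXP1_309. The comparison rests on the Cy5 channel of 12 of 24 arrays, 6 of OCI-Ly3 and 6 of DB, all scanned in one session. Arrays of the ABC line HBL-1 and the GCB line K422 serve only for the last comparison, and the Cy3 channel only as an alternative. The labels number 3 replicates per line, which the study describes as independent experiments. The 2 arrays of a number were averaged to give 3 values against 3. That both held control RNA of one experiment was assumed, since the labels do not state it. With the siFOXP1_308 or the siFOXP1_309 arrays alone, 3227 or 3200 genes were called higher and 3538 or 3522 lower in OCI-Ly3. With 1 line per subtype, a difference between the subtypes and a difference between these lines cannot be told apart.

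DLBCL is divided by gene expression into subtypes that resemble different stages of the germinal centre reaction. GCB-DLBCL keeps the programme of germinal centre B cells, driven by the repressor BCL6, whereas ABC-DLBCL resembles B cells on their way to plasma cells and depends on NF-κB signalling downstream of the B-cell receptor (BCR) and MYD88, and on the factor IRF4. MHC class II, by which B cells present peptides to helper T cells, is lost in part of these lymphomas. FOXP1, the forkhead factor silenced in the other channel of these arrays, is among the genes abundant in the ABC subtype.

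Signals are given as log2 of the quantile-normalised Cy5 intensity. This scale has no absolute unit and was not used to compare one gene with another. A probe was kept if Agilent's software called it well above background on all arrays of at least one line, and the brightest kept probe stood for its gene. Between 54.8% and 60.8% of spots per array were well above background in Cy5, and no probe was saturated. Arrays of one line correlated with a Pearson r of 0.978 to 0.998 over 13950 genes, against 0.871 to 0.890 for arrays of different lines. The median SD between replicates was 0.0974 in OCI-Ly3 and 0.186 in DB. One DB array, that of replicate 3 hybridised with siFOXP1_309, stood apart: of 201 probes that were bright in OCI-Ly3 and above background on at most 2 DB arrays, 30 were above background on it, against 4 to 13 on the other DB arrays. It lies on the 1 slide that also carried OCI-Ly3 arrays. The other array of DB replicate 3 lies on the same slide, with 4 of the 201 probes above background. The cause was not tested. Leaving out the array that stood apart gave 3185 genes higher and 3492 lower in OCI-Ly3, against 3178 and 3482 with it.

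Expression differed between the lines for a large share of genes. Of 16865 genes tested, 3178 (18.8%) were at least 2-fold higher and 3482 (20.6%) at least 2-fold lower in OCI-Ly3 at an adjusted p under 0.05 in limma, 39.5% in all. A gene that passed the filter through one line only had almost of necessity to differ, and 84.0% of those 2896 genes were called, 51.9% higher and 32.0% lower in OCI-Ly3. Among the 13969 genes well above background in both lines, 30.3% were called, 12% higher and 18.3% lower. These shares are the background against which the gene groups below are to be read. The median difference over all genes was -0.07, and 1 of 8 reference genes was called, WDR55, which was lower by 1.83. Within the slide that carried both lines (OCI-Ly3 replicate 1 against DB replicate 3), 2926 of the 3178 genes called higher differed at least 2-fold in the same direction. Of the 3482 called lower, 3126 did. Both replicates are among the values that made the calls, and DB replicate 3 holds the array that stood apart. The counts are therefore no independent check of the calls or of the slide.

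**Figure D1:**
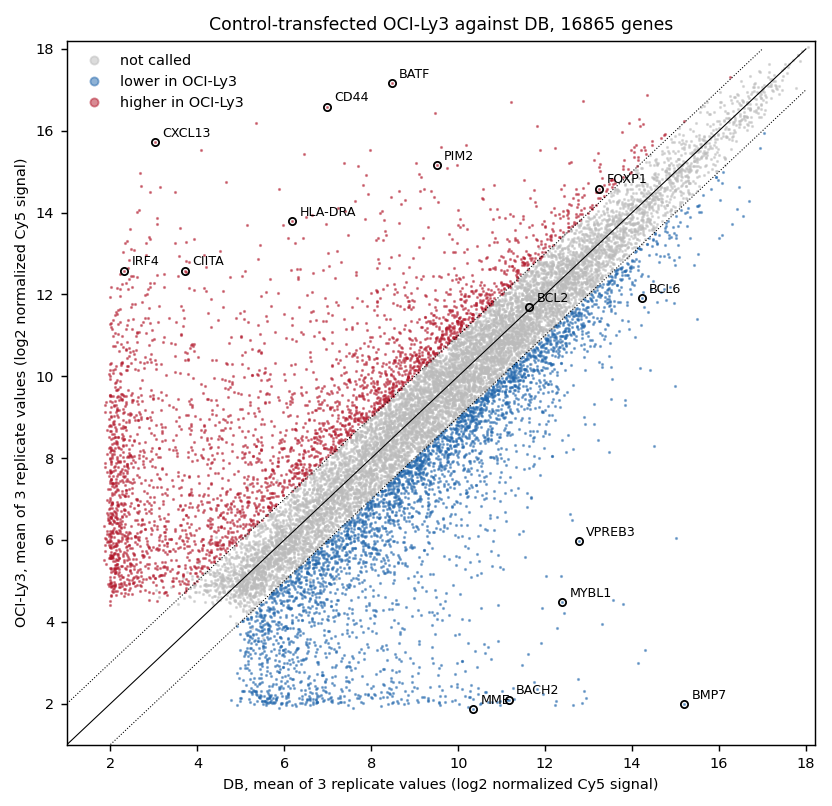
Mean log2 normalised Cy5 signal of each of 16865 genes in control-transfected DB (horizontal) and OCI-Ly3 (vertical), each point 1 gene and each mean over 3 replicate values; red and blue mark genes called higher or lower in OCI-Ly3, the solid line equality and the dotted lines a 2-fold difference. IRF4 and CXCL13 lie high at the left edge, MME, BACH2 and BMP7 at the bottom, FOXP1 just above the upper dotted line and BCL2 on the line of equality.

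The ABC signature was higher in OCI-Ly3 almost throughout. All 27 listed genes could be tested, and 25 were called higher and none lower. Among the 19 that were well above background in both lines, 17 were higher, against 12% of all such genes. The median difference of the list was 5.12, or 4.89 with the genes below background in DB set at their lower bound, beside -0.07 for all genes.

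IRF4 (probe at chr6:356002-356061 in the hg18 coordinates of the files), the factor that drives B cells out of the germinal centre reaction, measured 12.84, 12.52 and 12.37 in the 3 OCI-Ly3 replicates and 2.28, 1.90 and 2.79 in DB. It was not well above background on any DB array, with either of its 2 probes, so the difference is a bound: at least 275-fold higher in OCI-Ly3. CCND2, the D-type cyclin of the list, was at least 238-fold higher, and IGHM, the constant region of the IgM heavy chain, at least 225-fold. Both were above background on all 6 OCI-Ly3 arrays and on none of DB.

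BATF, an AP-1 factor that partners IRF4, was measured in both lines, at 17.16, 17.21 and 17.14 in OCI-Ly3 against 9.87, 7.23 and 8.31 in DB. The lines did not overlap, although the DB replicates spread over more than 2 log2 units. Its difference was 8.70 ± 0.61 (SE), a 415-fold higher signal. CD44, the hyaluronan receptor, gave 16.60, 16.51 and 16.66 against 6.74, 6.44 and 7.74 (9.62 ± 0.32). Among genes measured on all 12 arrays and named by a RefSeq symbol or synonym, this was the greatest difference, Y-linked genes, XIST and TSIX aside. The kinase genes PIM1 and PIM2, which promote survival and growth, were higher by 6.85 ± 0.16 and 5.65 ± 0.17. STAT3, which carries IL-6 and IL-10 signals, was very even within each line (12.53, 12.54 and 12.54 against 7.77, 7.49 and 7.69) and differed by 4.89 ± 0.11. The 2 listed genes that did not pass were BLNK, the BCR adaptor, whose difference of 0.96 ± 0.11 fell just short of 2-fold, and the survival gene BCL2, which measured 11.93, 11.48 and 11.64 against 11.69, 11.53 and 11.69 and overlapped between the lines (difference 0.05 ± 0.14, adjusted p = 0.778).

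**Figure D2:**
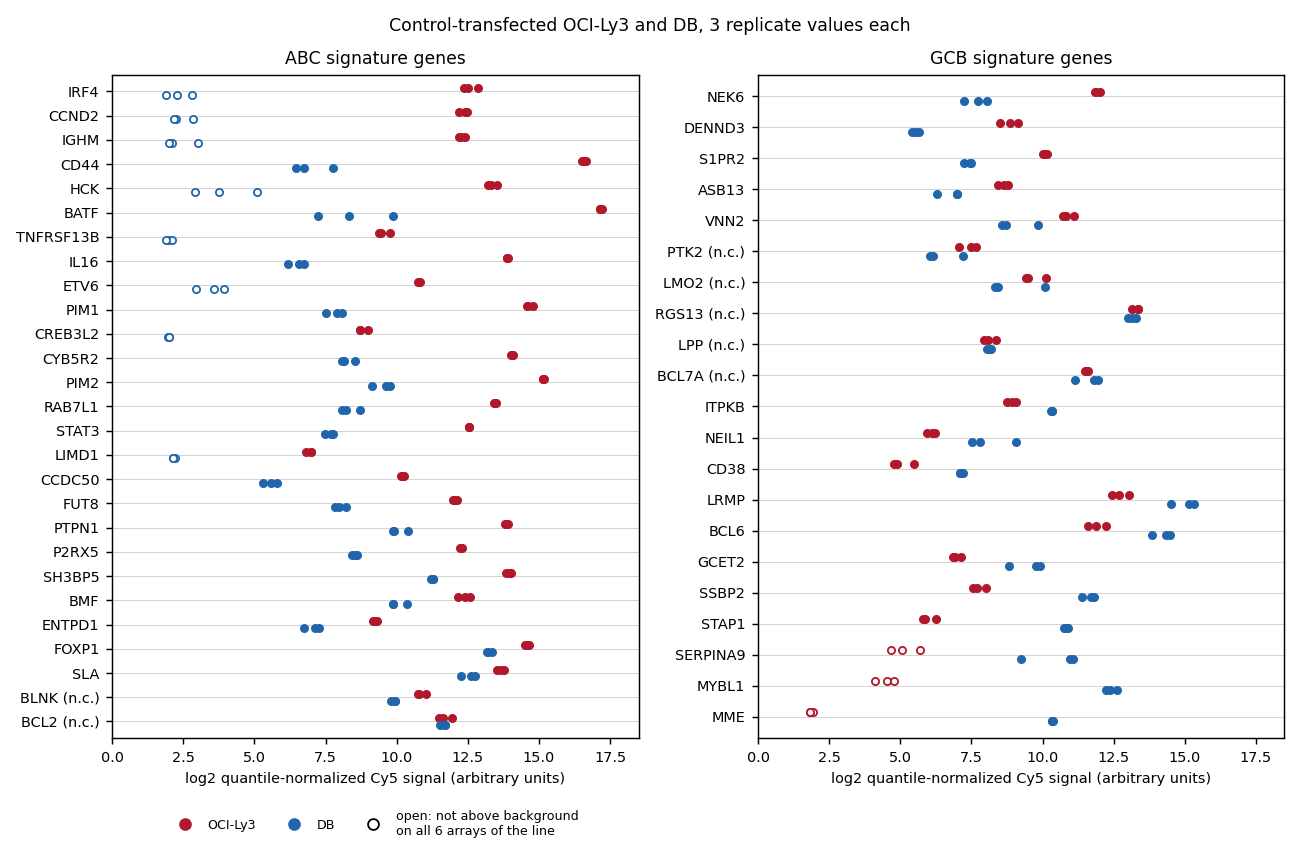
Log2 normalised Cy5 signal (horizontal) of each tested ABC signature gene (left) and GCB signature gene (right), ordered by their difference, with 3 replicate values of OCI-Ly3 in red and 3 of DB in blue; open points mark a line in which the gene was not well above background on all 6 arrays, and n.c. a gene that was not called. The red points lie to the right for all ABC genes down to BLNK, whereas the GCB genes divide, from NEK6 higher in OCI-Ly3 at the top to MME higher in DB at the bottom.

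The GCB signature divided. Of 23 listed genes 21 could be tested, and 11 were lower in OCI-Ly3, 5 were higher and 5 were not called. Among the 18 above background in both lines, 8 were lower, against 18.3% of all such genes, and 5 were higher, against 12%. The median difference was -1.40. MAML3 and SPINK2 were above background on no array of either line.

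MME (probe at chr3:156383444-156383503), which encodes the germinal centre antigen CD10, measured 1.83, 1.91 and 1.83 in OCI-Ly3 and 10.38, 10.33 and 10.34 in DB. It was not well above background on any OCI-Ly3 array, and was at least 83.1-fold higher in DB. MYBL1, a MYB-family factor of germinal centre B cells, was lower in OCI-Ly3 by 7.91 and was above background on 4 of its 6 arrays. SERPINA9, a serpin of germinal centre B cells, was lower by 5.28 (5 of 6 OCI-Ly3 arrays above background), and STAP1, an adaptor of BCR signalling, by 4.83. BCL6 remained well above background in OCI-Ly3, at 12.23, 11.61 and 11.88 against 13.83, 14.35 and 14.49 in DB. The lines did not overlap, and the difference was -2.32 ± 0.23 (adjusted p = 0.00015).

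The 5 genes that went against the list were NEK6, DENND3, S1PR2, ASB13 and VNN2. NEK6, a mitotic kinase, was higher in OCI-Ly3 by 4.24 ± 0.21, and DENND3, an activator of Rab GTPases, by 3.31 ± 0.18. S1PR2, the sphingosine-1-phosphate receptor that holds B cells in the germinal centre, was higher by 2.70 ± 0.11 with the brighter of its 2 probes (10.14, 10.03 and 10.08 against 7.44, 7.23 and 7.47). Its other probe was above background on 2 OCI-Ly3 arrays and no DB array. ASB13 was higher by 1.86 ± 0.21 and VNN2, which encodes a pantetheinase, by 1.85 ± 0.34. PTK2, LMO2, RGS13, LPP and BCL7A were not called, with differences of 0.94, 0.72, 0.15, 0.04 and -0.09. The LPP difference depended on the probe and was -1.65 as a mean over its kept probes. LMO2, a germinal centre transcriptional cofactor, spread widely within DB (SD 0.97).

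FOXP1 was abundant in both lines. Its signal was 14.65, 14.52 and 14.57 in OCI-Ly3 and 13.34, 13.18 and 13.20 in DB, without overlap. The difference was 1.34 ± 0.10, a 2.53-fold higher signal in OCI-Ly3 (adjusted p = 3.46e-05). The probe lies at chr3:71091098-71091157 in hg18, and the second FOXP1 probe, also above background on all 12 arrays, gave 1.25. In the silenced Cy3 channel of the same arrays the difference was 1.51. The 8 genes that the study followed individually or as FOXP relatives were mixed. HIP1R, an endocytic adaptor, was higher in OCI-Ly3 by 1.65 ± 0.13, FCRL5, an Fc receptor-like protein, by 2.31 ± 0.40 and C12orf42 by 3.82 ± 0.18. FOXP2 was above background on all OCI-Ly3 arrays with a bound of at least 13.1-fold, although another of its probes was above background on 1 DB array. FCGBP was lower in OCI-Ly3 by 1.76 ± 0.37, a call lost with the slide as a block or with normexp and opposite in sign in the Cy3 channel (0.60). FOXP4 differed by 0.50, and FOXP3 was below background throughout. CHAC1, a glutathione-degrading enzyme induced by amino acid stress, was even in DB (12.36, 12.38 and 12.35) and uneven in OCI-Ly3 (12.24, 9.57 and 10.72). Its difference of -1.52 ± 0.62 did not pass (adjusted p = 0.0662). Without its high OCI-Ly3 value, that of replicate 1, the CHAC1 difference was -2.22 and passed, with an adjusted p of 0.0032. Within the shared slide, OCI-Ly3 replicate 1 and DB replicate 3 differed by only 0.11.

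MHC class II genes were mostly higher in OCI-Ly3. All 18 listed genes were tested: 15 were higher, 1 was lower and 2 were not called, with a median difference of 5.06 (4.89 with bounds). Of the 12 measured in both lines, 9 were higher, against 12% of all such genes. The other 6 passed the filter through one line only and all were higher, against 51.9% of that class. HLA-DRA (probe at chr6:32520426-32520485), the nearly invariant α chain of HLA-DR, measured 13.77, 13.80 and 13.80 in OCI-Ly3 and 5.85, 5.92 and 6.79 in DB, a difference of 7.60 ± 0.25 or 195-fold (adjusted p = 8.68e-07). HLA-DRB1 differed by 5.84 ± 0.15, and HLA-DPB1 by 5.52 ± 0.23. HLA-DQB1 was above background on no DB array and at least 11.7-fold higher in OCI-Ly3. HLA-DQA1 was above background on 5 of 6 DB arrays and differed by 5.13 ± 0.41. The HLA-DR, -DQ and -DP β chains and their paralogs are alike in sequence and vary between people. Probes of these genes can therefore detect one another's transcripts or match one line's alleles better, and how far this contributed was not tested.

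CD74, the invariant chain that escorts class II molecules to endosomes, was higher by a smaller margin, at 12.38, 12.49 and 12.41 against 9.48, 9.66 and 9.65 (2.83 ± 0.10). HLA-DPA1 and HLA-DOA were higher by 2.00 ± 0.09 and 1.88 ± 0.18. The peptide exchange genes HLA-DMA and HLA-DMB were not called. HLA-DMA overlapped between the lines at 11.91, 11.76 and 11.72 against 11.67, 11.70 and 11.76, and HLA-DMB differed by 0.77. HLA-DOB, whose product inhibits HLA-DM, went the other way: it was 7.77, 7.92 and 7.86 in OCI-Ly3, below each DB value, with a DB mean of 11.75 ± 0.22 (SD, n = 3) and a difference of -3.90 ± 0.13 (adjusted p = 1.02e-06).

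The 250 bases before the transcription start are shown for one class II gene that was higher in OCI-Ly3, one that was not called and one that was lower, because class II promoters share elements bound by the RFX, CREB and NF-Y proteins with which CIITA assembles. The sequences are RefSeq's, from GRCh38.p14, on the minus strand and in the direction of transcription. Capitals mark letters of the Y box core (GATTGG or CCAATC) and of an X box stretch (CTGATGAT or ATCATCAG), searched on both strands.
HLA-DRB1, chr6:32589849-32590098: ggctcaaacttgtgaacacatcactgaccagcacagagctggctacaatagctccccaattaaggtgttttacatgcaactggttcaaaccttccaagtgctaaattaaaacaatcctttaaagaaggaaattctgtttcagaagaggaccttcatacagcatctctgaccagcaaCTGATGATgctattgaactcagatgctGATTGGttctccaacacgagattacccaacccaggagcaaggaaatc
HLA-DMA, chr6:32953098-32953347: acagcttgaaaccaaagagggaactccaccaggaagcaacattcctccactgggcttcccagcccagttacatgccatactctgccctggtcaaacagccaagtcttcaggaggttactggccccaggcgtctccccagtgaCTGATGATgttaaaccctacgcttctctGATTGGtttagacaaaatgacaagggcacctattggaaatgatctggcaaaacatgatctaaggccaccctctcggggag
HLA-DOB, chr6:32817003-32817252: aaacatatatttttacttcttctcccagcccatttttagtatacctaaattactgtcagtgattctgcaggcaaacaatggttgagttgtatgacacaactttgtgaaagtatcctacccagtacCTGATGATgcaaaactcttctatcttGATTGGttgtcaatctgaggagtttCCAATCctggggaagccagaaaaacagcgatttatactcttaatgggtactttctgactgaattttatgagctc
The 3 windows hold both sets of letters, the X box letters 74, 108 and 125 bases before the start in HLA-DRB1, HLA-DMA and HLA-DOB. The Y box letters lie 47 bases before it in HLA-DRB1, 80 in HLA-DMA, and 99 and 74 in HLA-DOB. Of the 18 listed genes 13 had a window in the table. The Y box letters were found in 10 of them and both sets in 5, against 14.1% and 0.08% of all 35116 promoter windows. Both sets were in HLA-DRB1 and HLA-DRB5 (higher in OCI-Ly3), HLA-DMA and HLA-DMB (not called) and HLA-DOB (lower). The other higher genes with a window lacked the X box letters, and of these HLA-DPA1, HLA-DQA1 and CD74 lacked both sets. The windows are reference sequence, not that of the lines.

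CIITA, the class II transactivator, measured 12.59, 12.64 and 12.52 in OCI-Ly3. Its DB values of 2.07, 3.90 and 5.14 were low and uneven, above background only on the 2 arrays of replicate 3, one of them the array that stood apart (5.39, against 4.89 on its partner). The difference was 8.88 ± 0.71, for a gene that passed the filter through OCI-Ly3 only. Each of the other 3 CIITA probes was above background on all OCI-Ly3 arrays and on no DB array. Transcripts of the 7 listed proteins that bind class II promoters with CIITA were well above background in both lines. Of these, 1 was higher and 1 lower, against 12% and 18.3% of all such genes. RFXAP was higher in OCI-Ly3 by 1.82 ± 0.12, and NFYC, a subunit of NF-Y, was lower by 2.18 ± 0.21. RFX5, RFXANK, CREB1, NFYA and NFYB were not called, with differences between -0.20 and 0.75.

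MHC class I chains were higher in OCI-Ly3, with smaller and mixed differences in the loading machinery. Of 19 presentation genes tested, 10 were higher and 2 lower in OCI-Ly3. HLA-B was 16.35, 16.50 and 16.41 against 9.74, 9.19 and 9.50 in DB, a difference of 6.95 ± 0.15. Of the other class I genes, HLA-C, HLA-E, HLA-F and HLA-G differed by 5.11 to 5.72, with the same limit on near-identical paralogs. B2M, the shared light chain, differed by 2.23 ± 0.27 (15.35, 15.49 and 15.51 against 13.87, 12.89 and 12.90). The immunoproteasome subunits PSMB8, PSMB9 and PSMB10 were higher by 1.76, 1.04 and 2.38. TAP1 (0.94), TAPBP (0.75) and the class I transactivator NLRC5 (0.92) did not reach 2-fold. TAP2, the other subunit of the peptide transporter, was lower by 3.08, with 5 of 6 OCI-Ly3 arrays above background, and ERAP2, which trims peptides, by 1.37.

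**Figure D3:**
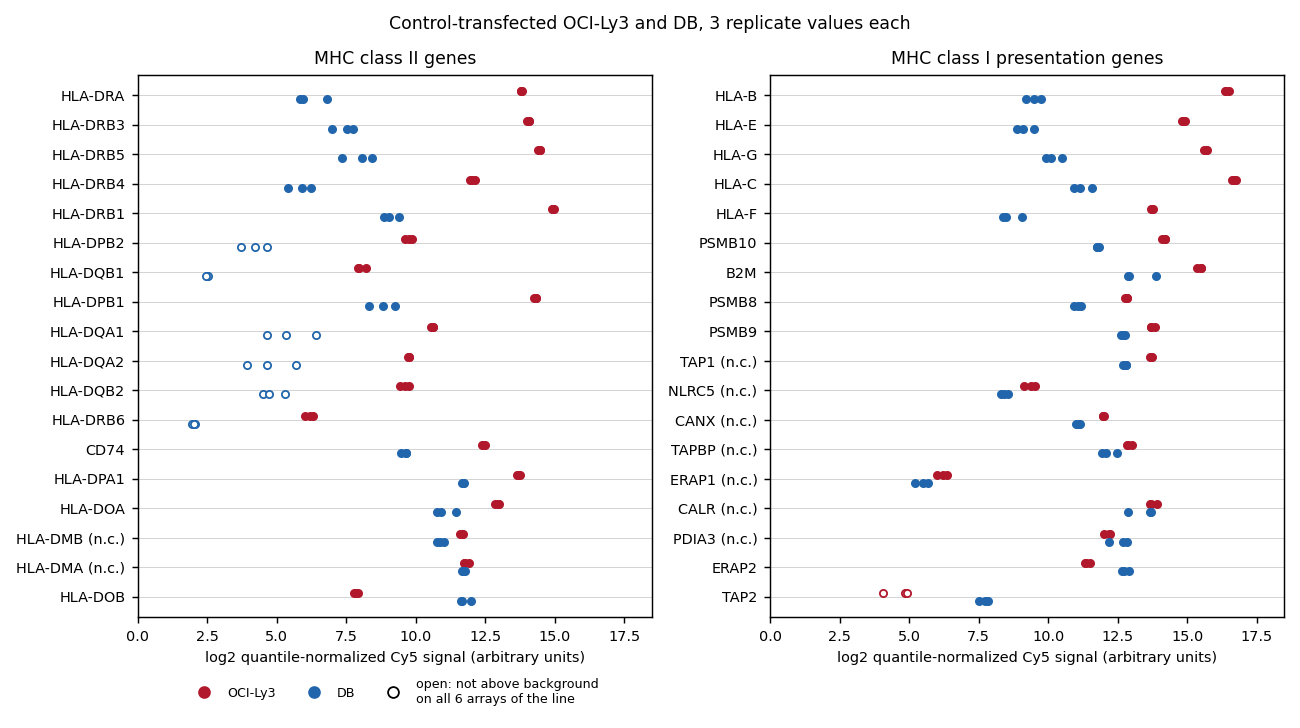
Log2 normalised Cy5 signal (horizontal) of MHC class II genes (left) and 18 MHC class I presentation genes (right), ordered by their difference, with 3 replicate values of OCI-Ly3 in red and 3 of DB in blue; open points mark a line in which the gene was not well above background on all 6 arrays, and n.c. a gene that was not called. The lines lie far apart from HLA-DRA down to HLA-DRB6 and from HLA-B down to HLA-F, meet at HLA-DMA and CALR, and change sides at HLA-DOB, ERAP2 and TAP2.

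Interferon-stimulated genes divided. Of 26 listed, 19 were tested, 9 were higher and 3 lower in OCI-Ly3. ISG15, a ubiquitin-like modifier, was higher by 3.99 ± 0.10 and IFIH1, a sensor of double-stranded RNA, by 6.68 with 1 of 6 DB arrays above background. IFITM1 was lower by 3.39 ± 0.14 and OAS2 by 2.03 ± 0.23. IFIT1, IFIT3, IFI44, IFI44L, RSAD2 and XAF1 were not well above background on any OCI-Ly3 array and on at most 1 DB array. IFIT2, also not tested, was above background on 5 of 6 OCI-Ly3 arrays with the better of its 2 probes and on no DB array.

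NF-κB targets were higher in OCI-Ly3, the subunits mostly not. Of 28 listed genes, all tested, 22 were higher and 1 was lower, with a median difference of 3.15 (3.09 with bounds). Of the 21 measured in both lines 16 were higher and none lower, against 12% and 18.3% of all such genes. CCR7, a lymph node homing receptor, measured 15.46, 15.38 and 15.43 against 6.99, 5.64 and 6.72 (8.97 ± 0.34, or 502-fold). The cytokine genes IL10 and IL6 were above background on no DB array and at least 119-fold and 19.6-fold higher. TNF differed by 7.46 ± 0.44, with 4 of 6 DB arrays above background. The feedback inhibitors NFKBIA, NFKBIZ and NFKBIE were higher by 3.34, 2.97 and 2.81, and TNFAIP3, which encodes A20, by 5.41 with 5 of 6 DB arrays above background. Of the subunits, NFKB2 was higher by 2.27 ± 0.16. NFKB1 (0.86), RELB (0.29), RELA (-0.40) and REL (-0.70) were not called. Among the targets, BCL2A1 was not called (0.99), and CCL4 was the only one lower, by 6.96 and above background on 1 OCI-Ly3 array.

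Signalling genes upstream of NF-κB were called less often than the NF-κB list. Of 21 genes of BCR and MYD88 signalling, 7 were higher, 4 lower and 10 not called. Of all genes, 18.8% were higher and 20.6% lower. Among the 18 measured in both lines, 6 were higher and 2 lower, against 12% and 18.3% of all such genes. The kinase genes LYN, BTK and SYK were higher by 5.22, 2.74 and 1.91, and MYD88 by 1.63 ± 0.16. PTPN6, which encodes the phosphatase SHP-1, was higher by 6.56 with 4 of 6 DB arrays above background. MALT1 and BCL10, which act together between the BCR and NF-κB, differed by 0.83 and 0.54 and were not called. PRKCB, the kinase upstream of them, was above background on no OCI-Ly3 array and at least 4.78-fold higher in DB, and the inhibitory receptor FCGR2B was lower in OCI-Ly3 by 3.69 ± 0.17.

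In the JAK and STAT group, 11 of 17 tested genes were higher in OCI-Ly3 and 1 was lower, with a median of 2.89 (1.90 with bounds). The feedback inhibitor SOCS3 measured 13.68, 13.04 and 13.34 against 1.99, 3.33 and 3.40. Of its 2 DB arrays above background one was the array that stood apart (4.84, against 1.95 on its partner). SOCS2, another of them, was at least 225-fold higher with its brightest probe, although a further probe was above background on 1 DB array. The receptor genes IL4R, IL21R and IL6R were higher by 7.29, by 2.89 and by at least 51.9-fold. JAK1, JAK2 and JAK3 were higher by 2.91, 1.49 and 3.36, and STAT6 by 1.70. STAT5A was lower by 1.25 ± 0.15, and STAT5B (0.48) and STAT2 (-0.86) were not called.

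The plasma cell fate list divided. Of 14 tested genes, 4 were higher and 6 lower in OCI-Ly3. The list also holds genes that act against this fate, such as BACH2 among the 6, so the counts give no direction of the programme. PRDM1, which encodes the plasma cell repressor BLIMP1, measured 11.67, 11.07 and 11.27 against 4.13, 2.69 and 3.69, with 1 of 6 DB arrays above background (7.83 ± 0.37). ELL2, an elongation factor used in immunoglobulin secretion, was higher by 7.01 ± 0.38. BACH2, a repressor of PRDM1, was 2.29, 2.05 and 1.95 in OCI-Ly3, above background on none of its arrays, and at least 146-fold higher in DB. CD27, a memory and plasma cell receptor, was lower in OCI-Ly3 by 8.42 ± 0.32, with 2 of 6 OCI-Ly3 arrays above background. XBP1, the secretory pathway factor, and SDC1, which encodes CD138, were not called (0.20 and 0.72). The J chain gene IGJ, MGC29506 and TNFRSF17 were lower by 2.49, 3.12 and 1.67.

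Both lines carried B-cell markers. MS4A1, CD79A, CD79B, PAX5, CD22, CD72, BLK, EBF1, POU2AF1 and CD37 were above background on all 12 arrays. Of the 19 identity genes, 7 were higher in OCI-Ly3 and 5 lower. SPIB, an ETS factor, was higher by 5.89 ± 0.43. The BCR chains CD79A and CD79B (-0.94 and -0.72) and MS4A1 (0.90) were not called. VPREB3, a chaperone of pre-B cells, was 6.01, 5.87 and 6.02 against 12.70, 12.82 and 12.80 and lower by 6.81 ± 0.10, and CD24 was lower by 4.09 ± 0.19. Of the markers of other cells, 2 of 11 T and NK, 2 of 8 myeloid, 2 of 8 epithelial and stromal and 0 of 4 erythroid genes passed the filter. CD3D, CD3G, CD14, LYZ, EPCAM, COL1A1 and HBB were well above background on at most 3 arrays of either line. CD247, the ζ chain of the T-cell receptor, was an exception in DB, at 10.54, 11.14 and 11.05 against 4.20, 4.46 and 4.59 (5 of 6 OCI-Ly3 arrays above background), and ITGAM, a myeloid integrin, was at least 9.93-fold higher in OCI-Ly3. CSF1R, a myeloid receptor, and the keratin genes KRT8 and KRT18 were above background on all 12 arrays. CSF1R was lower in OCI-Ly3 by 2.61 ± 0.16 and KRT18 higher by 1.02, whereas KRT8 was not called (0.63).

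Receptors and chemokines of B-cell migration were mostly higher in OCI-Ly3. Of 16 tested, 13 were higher in OCI-Ly3 and 2 lower, but 12 of the 16 passed the filter through one line only, a class in which 84.0% of all genes were called. CXCL13, the chemokine that draws B cells into follicles, was 15.68, 15.78 and 15.72 in OCI-Ly3. On DB arrays it lay between 1.94 and 2.73, below background, except on the array that stood apart, where it was 7.45. CXCR4, the receptor of the germinal centre dark zone, behaved alike: it was above background on all 6 OCI-Ly3 arrays and, in DB, only on that same array (5.43, against 2.03 to 2.20 on the others). Apart from that array, neither gene was above background on any DB array. CXCL10 was at least 401-fold higher in OCI-Ly3, and CXCR5, the receptor for CXCL13, was measured in both lines and higher by 5.35 ± 0.19. ITGA4, an integrin, was lower by 4.92 with 2 of 6 OCI-Ly3 arrays above background, and P2RY8, a confinement receptor of germinal centre B cells, by 1.23 ± 0.24. Of the 12 immunoglobulin and diversification genes 5 were tested and 2 were higher. IGHD, the heavy chain of IgD, was above background on no DB array and at least 4.13-fold higher, and the κ light chain gene IGKC was not called (-0.14).

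Among ligands seen by T cells, CD274, which encodes PD-L1, and the death receptor gene FAS were above background on no DB array and at least 23.2-fold and 26.6-fold higher in OCI-Ly3. TNFRSF14, a receptor often lost in germinal centre lymphomas, was higher by 6.08, with 2 of 6 DB arrays above background, and TNFRSF8, which encodes CD30, by 6.33 ± 0.49. CD58, the ligand of CD2, was lower by 4.40 with 1 of 6 OCI-Ly3 arrays above background, and CD48 by 1.34. CD86 did not differ beyond the threshold (-0.21).

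Cell cycle, survival and chromatin genes departed less from the background. Of 16 cell cycle regulators, 4 were higher and 4 lower in OCI-Ly3. CDKN1A, which encodes the inhibitor p21, was 11.45, 11.05 and 11.23 against 5.40, 5.38 and 5.38 (5.85 ± 0.12). The inhibitors CDKN2A and CDKN2C were lower by 3.19 ± 0.18 and 4.56 ± 0.11, and MYC by 1.22 ± 0.28. Of the 12 BCL2 family genes, 3 were higher, the BH3-only genes PMAIP1 (6.48 ± 0.24) and BID (2.66 ± 0.17) and the survival gene MCL1 (1.34 ± 0.13), and 9 were not called. Of 12 chromatin regulators, 9 were not called, EZH2 among them at 0.07 ± 0.09. TET2, a DNA demethylase, was at least 22.5-fold higher in OCI-Ly3, and MEF2B, a factor mutated in germinal centre lymphomas, was lower by 2.97 ± 0.21 with its brightest probe. The MEF2B difference was -0.93 as a mean over its kept probes, which is not a call.

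**Figure D4:**
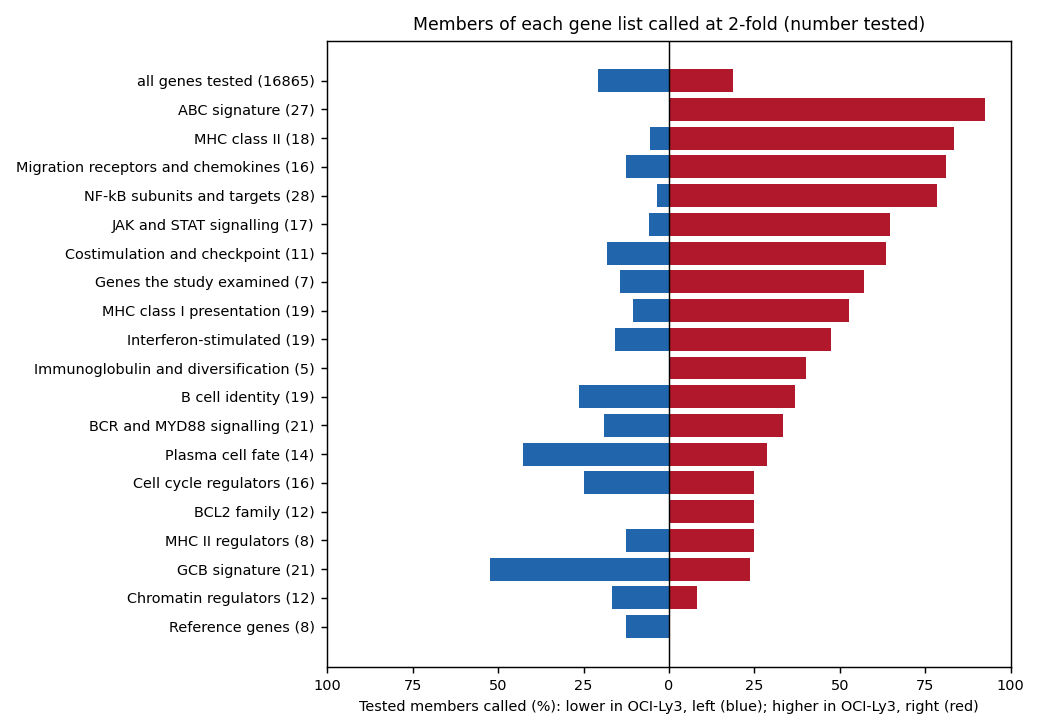
Share of the tested members of each gene list, and of all 16865 genes, called at least 2-fold lower (blue, left) or higher (red, right) in OCI-Ly3 (percent, horizontal; number tested in brackets; lists with at least 5 tested). ABC signature (25 of 27), MHC class II (15 of 18), migration (13 of 16) and NF-κB genes (22 of 28) have the longest red bars, and the GCB signature (11 of 21) the longest blue bar.

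Called genes with a RefSeq symbol or synonym were also ranked, without Y-linked genes, XIST and TSIX. Of those measured on all 12 arrays, the 10 with the greatest differences in each direction included genes outside these lists. On the OCI-Ly3 side they were SP140, a nuclear body protein of lymphocytes (8.70 ± 0.19), the lysosomal protein LAPTM5 (7.76 ± 0.33) and SLC44A1 (7.72 ± 0.18). TOX2 (7.57 ± 0.24) and IL4I1, a secreted amino acid oxidase (7.45 ± 0.26), followed, beside the pseudogene HLA-J (7.83 ± 0.14). On the DB side C13orf15 (-8.97 ± 0.16) led, followed by the adhesion genes CEACAM1 (-7.25 ± 0.12) and JUP (-6.90 ± 0.12), then CD52 (-6.20 ± 0.25), LY86 (-6.14 ± 0.17), the T-cell kinase LCK (-5.96 ± 0.11), the glucocorticoid-induced TSC22D3 (-5.93 ± 0.63), MIER2 (-5.74 ± 0.15) and SSTR2 (-5.64 ± 0.12). Of ranked genes above background in one line only, ZBTB32, a zinc finger repressor of lymphocytes, had the greatest bound in OCI-Ly3, at least 481-fold. C13orf18, S100A6, MPST, SLC12A7, CAPN2, LYSMD2 and DHRS9 were at least 289-fold to 452-fold higher. In DB, BMP7, a bone morphogenetic protein, measured 15.06, 15.34 and 15.22 against 1.99, 1.97 and 1.98 in OCI-Ly3 and was at least 2407-fold higher. KCNK12, NELL2, ALOX5, RGS18, LZTS1, SLITRK6, TRIB2 and C17orf60 were among those that followed with bounds between 157-fold and 497-fold.

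To show where OCI-Ly3 and DB differ from the other ABC and GCB lines of the series, the same contrast was taken for HBL-1 (ABC-DLBCL) minus K422 (GCB-DLBCL), likewise siCtrl cells but scanned in a second session, so that each contrast lay within its own session. In that contrast 36.5% of 17889 genes were called, 17.3% higher and 19.2% lower in HBL-1. The difference between the contrasts was tested in limma over the 12 replicate values of the 4 lines, and 43.8% of 16865 genes differed by at least 2-fold between them (3695 higher, 3684 lower), so a difference between the pairs was common. Of the 13198 genes well above background on all 24 arrays, 36.4% differed, 17.1% higher and 19.3% lower. Where a gene was above background on no array of a line, the size of its difference was not compared between the pairs.

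The ABC genes used to type tumours shared their direction in both pairs. TNFRSF13B, LIMD1, IRF4, CREB3L2, PIM2, CYB5R2, RAB7L1 and CCDC50 were higher in the ABC line of both pairs. IRF4, TNFRSF13B, LIMD1 and CREB3L2 were above background on all OCI-Ly3 and HBL-1 arrays and on no DB or K422 array, and CYB5R2, a reductase, on no K422 array. Of the typing genes measured in all 4 lines, PIM2 and RAB7L1 differed more between OCI-Ly3 and DB (by 1.79 and 1.44) and CCDC50 less (-2.02). Over the whole ABC list, 25 of 27 genes were called higher in each pair, 23 of them in both. BCL2, which did not differ between OCI-Ly3 and DB, was above background on all 6 HBL-1 arrays and on no K422 array. Of the GCB typing genes, MME, MYBL1, SERPINA9 and ITPKB were lower in the ABC line of both pairs. S1PR2 and ASB13 were opposite: S1PR2 was higher in OCI-Ly3 than in DB but lower in HBL-1 than in K422 by 4.53, and the pairs differed by 7.18 (adjusted p = 1.45e-09). ASB13 differed between the pairs by 5.84. FOXP1 differed by 1.34 and 1.18, with no difference between the pairs past the threshold (0.14, adjusted p = 0.354).

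MHC class II, like the GCB signature, differed between the pairs mostly in one direction. In HBL-1 against K422 none of the 18 listed genes was higher and 7 were lower, against 2694 and 2927 of all 16865 genes tested. Of the 12 members above background on all 24 arrays, 9 differed between the pairs, all higher in the pair of OCI-Ly3 and DB, against 17.1% of all such genes. HLA-DRA was 12.63 in HBL-1 and 12.63 in K422 and differed between the pairs by 7.52 (adjusted p = 5.07e-09). CIITA, at 10.95 and 11.28, differed between the pairs by 9.21, with 2 of 6 DB arrays above background, and CD74 by 2.81. On the same scale HLA-B was 15.50 in HBL-1 and 15.36 in K422, and the pairs differed by 6.70. HLA-DOB, in contrast, was lower in the ABC line of both pairs, with differences of -3.90 and -3.53.

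**Figure D5:**
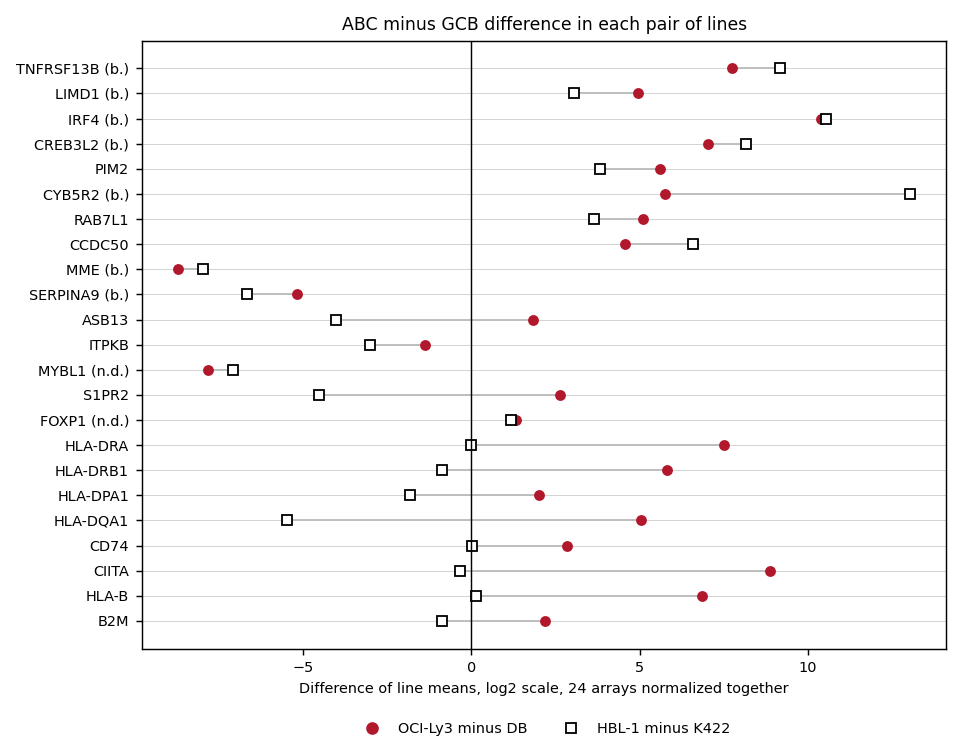
Difference of line means on the log2 scale of all 24 arrays (horizontal) for 23 genes, as OCI-Ly3 minus DB (red circles) and HBL-1 minus K422 (open squares), each mean over 3 replicate values; n.d. marks genes whose differences did not differ between the pairs past the threshold, and b. genes above background on no array of a line, whose points show direction but not size. The ABC typing genes at the top lie right of 0 in both pairs, S1PR2 and ASB13 lie on opposite sides, and the MHC genes at the bottom lie right of 0 for OCI-Ly3 minus DB and near or left of 0 for HBL-1 minus K422.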

How the data were processed

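RNA of siCtrl cells (Cy5) and FOXP1-silenced cells (Cy3) had been hybridised to Agilent 2-colour whole genome arrays, and the deposited files hold each array's scanner output. The intensity values used, the processed Cy5 signal, were made with Agilent Feature Extraction 10.5.1.1 (OCI-Ly3 and DB) or 10.7.3.1 (HBL-1 and K422) per the file headers, by background correction and dye normalisation (linear and lowess) within the array. The Cy5 signal was therefore scaled to its Cy3 partner before deposit, which is why unnormalised mean signals and the Cy3 channel were tried as alternatives.

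Of 45015 spots per array, 1639 controls and those marked as outliers were dropped. Replicate spots of a probe were averaged, log2 values were quantile-normalised over the 12 arrays, and the 2 arrays of a replicate number were averaged. Of 41000 probes, 23434 were kept (well above background on all 6 arrays of at least one line), which gave 16865 of 30142 gene names, each by its brightest probe. The lines were compared 3 against 3 with limma 3.58.1 in R 4.3.3 (lmFit and eBayes), and p-values were adjusted by Benjamini-Hochberg over all genes tested. A gene was called at an adjusted p under 0.05 and a log2 difference of at least 1. All p-values in the text come from this model or, for differences between the pairs of lines, from the same model over 4 lines after quantile normalisation of 24 arrays.

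For a probe not well above background on any array of a line, the difference is given as a bound: the other line's mean against, per array, the higher of the lowest signal among probes well above background and the probe's own. Genes above background on some arrays of a line have no bound, and those arrays are counted. The number of arrays limits the precision. Gene symbols were taken from the array files and can be old.

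The members of the gene lists, and the contrast itself, were chosen with earlier results of these data known. Named were the members with the greatest differences, 2 to 6 a list, members that went against the ABC, GCB and MHC class II lists, the 10 genes with the greatest difference or bound in each direction, and genes examined individually in the study. Names without a RefSeq symbol or synonym, Y-linked genes, XIST and TSIX were left out of the ranking by difference or bound. Genes named beyond this rule (further list members and probes) were chosen after their values were seen. A few genes that count in the lists are not reported here. Chromatin, survival, cell cycle, migration, costimulation, immunoglobulin, reference and other-cell marker lists were used in the same way. Promoter windows came from RefSeq (GRCh38.p14). The scripts were tested on simulated data. Scaling, background correction, channel, filter, probe, block, slide, prior, test and replicates were varied as alternatives. Slides are those given in the file headers.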

Additional observations from a re-analysis of the deposited data

Results flagged for a closer look

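The DB array of replicate 3 hybridised with siFOXP1_309 lay apart from the other DB arrays: 30 of the 201 probes that were bright in OCI-Ly3 and above background on at most 2 DB arrays were above background on it, and their median log2 signal was 3.58, against 2.18 to 2.37 on the other 5. The OCI-Ly3 array of replicate 1 hybridised with siFOXP1_309 lay apart by a low share of spots whose processed signal was a substituted minimum, 19.3%. Over the OCI-Ly3 and DB arrays and their measures, 12 groups of 6 arrays were examined in this way and 3 held such a value. The rule flags about 1 in 20 groups by chance, but 2 of the 3 values came from the same DB array and the same 201 probes. The groups were thus not independent, and the count cannot be set against that rate.

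Examined were 16 chosen typing genes, antigen presentation genes and FOXP1, each above background on at least 1 array of each line. In limma 14 of them differed between the pairs of lines, against 43.8% of all 16865 genes tested. Values are (OCI-Ly3 minus DB) minus (HBL-1 minus K422) on the log2 scale. Among the ABC genes those that differed were PIM2 (1.79), RAB7L1 (1.44) and CCDC50 (-2.02). Among the GCB genes they were ASB13 (5.84), ITPKB (1.65) and S1PR2 (7.18). In antigen presentation they were HLA-DRA (7.52), HLA-DRB1 (6.69), HLA-DPA1 (3.84), HLA-DQA1 (10.52, with 5 of 6 DB and 4 of 6 HBL-1 arrays above background), CD74 (2.81), CIITA (9.21, with 2 of 6 DB arrays), HLA-B (6.70) and B2M (3.05). MYBL1 and FOXP1 were not past the threshold.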

How the results depend on the processing

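No gene called in the comparison of OCI-Ly3 with DB was called in the opposite direction under the alternatives tried, except 1 gene in the silenced Cy3 channel. The counts of 3178 genes higher and 3482 lower became 3560 and 3089 with 75th percentile scaling, 2798 and 4200 with no scaling between arrays, and 3059 and 3389 with the methods' t-test after Benjamini-Hochberg adjustment. With normexp and an offset of 50, 2240 genes were lower. With only probes above background on all 12 arrays, 1676 genes and 9 MHC class II members were higher, since genes dim in one line are not tested there. With a log2 limit of 0.5, 5447 genes were lower. Leaving out 1 replicate gave 3081 to 3261 genes higher and 3362 to 3533 lower, 24 to 26 ABC members higher, 11 GCB members lower, 15 MHC class II members higher, and a FOXP1 difference of 1.31 to 1.39. For the difference between the pairs of lines it gave 3642 to 3764 higher and 3601 to 3750 lower.

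With the replicate block, 3182 genes were higher and 3483 lower, of which 3170 and 3473 were shared with the unblocked fit. The labels give replicate numbers but state no pairing across lines, and the study describes 3 independent experiments. Deviations of same-numbered samples of the lines correlated by 0.160, 0.224 and -0.0158, and the numbers were not treated as a pairing. OCI-Ly3 correlated best with its own number for 2 of 3. With the slide as a fixed block, chosen after seeing the data, 2688 genes were higher and 2936 lower, and of the genes named above CD22, CD48, FCGBP, FCRL5, MYC, P2RY8 and PSMB9 were no longer called. With normexp, EBF1, FCGBP, HLA-DRB6, JAK2, OAS2, PAX5 and PRKCB were not. Other lost calls among them were EBF1 and STAT5A in the Cy3 channel, EBF1 and MEF2B as a mean over kept probes, MYC with 75th percentile scaling, and P2RY8 or PSMB9 near 2-fold with no scaling or without 1 OCI-Ly3 replicate.

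Of single genes, FCGBP (-1.76) was 0.60 in the Cy3 channel, and ICOSLG (2.19) was -0.10 with probes above background on all 12 arrays, which takes another probe. As a mean over kept probes BBC3 (-0.07) was 1.00, the HRK difference (0.61) was -1.39 and LPP (0.04) was -1.65. CHAC1 was also called with no scaling (-1.70), with the replicate number or the slide as a random block over the 12 arrays, and in the fit of all 4 lines, and was -0.11 with the slide as a fixed block. Arrays on which a probe was not well above background give no level for it, which limits folds to bounds.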
